A study of Mus musculus with 13 samples.

Results

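The translation factors described here are the protein-coding genes whose symbol starts with Eif or Eef, together with the termination factor genes Etf1, Gspt1 and Gspt2, and without Eif4e1b and Eif4enif1. Of the 22442 genes counted in the Ribo-seq libraries, 70 meet this rule, and all 70 are also among the 21898 genes counted by acRIP-seq. They comprise 53 Eif genes, 14 Eef genes and the 3 termination factor genes, and were placed in 17 groups by role.

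Protein synthesis starts when the small ribosomal subunit, loaded with eIF1, eIF1A, eIF3 and the eIF2-GTP-initiator tRNA complex, is brought to the mRNA cap by eIF4F and scans to the start codon, where eIF5 and eIF5B bring in the large subunit. eIF2B recharges eIF2 with GTP, and the eIF2 alpha kinases block that step. The eEF1 complex then delivers aminoacyl-tRNAs, eEF2 moves the ribosome along the mRNA, and the release factors eRF1 (Etf1) and eRF3 (Gspt1, Gspt2) end the chain. A fully grown oocyte is transcriptionally silent while it matures, so the proteins it makes in that time come from mRNAs stored beforehand, and in many animals cytoplasmic polyadenylation selects which of them are translated.

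The data come from C57BL/6J mice. Ribo-seq measured ribosome-protected fragments (footprints), the short RNA pieces that a ribosome shields from RNase I, in WT oocytes and in Nat10-ZcKO oocytes, in which Zp3-Cre, active in the growing oocyte, deletes floxed exons 4 and 5 of Nat10, the enzyme that places N4-acetylcytidine (ac4C) on RNA. Germinal vesicle (GV) oocytes were collected 48 h after PMSG from females injected at 21 days of age, and metaphase II (MII) oocytes 16 h after hCG, itself given 46 h after PMSG. The series' design text also names tamoxifen injection for 3 days, which the study's methods describe only for a cell line. There were 3 WT GV, 3 Nat10-ZcKO GV, 2 WT MII and 3 Nat10-ZcKO MII libraries, each from pooled oocytes, and 1 anti-ac4C and 1 anti-IgG acRIP-seq library (RNA pulled down with the antibody) from WT GV oocytes. Nothing in the labels says that the libraries of a group came from separate animals, so p-values measure only the spread between these libraries.

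Nat10 itself had 8, 11 and 3 counts (WT GV), 4, 1 and 5 (Nat10-ZcKO GV), 1 and 5 (WT MII) and 6, 3 and 2 (Nat10-ZcKO MII), too few to check the labels, and the counts do not separate the deleted exons. Library totals ran from 42360 to 279464 counts in 10 libraries, whereas WT MII replicate 2 held 4815. Altogether 3 libraries stood apart by the marker lists. The 12 oocyte markers took 3.76 to 6.68% of counts in the WT GV libraries and Nat10-ZcKO GV replicate 3, and 0.967 to 1.19% in the 4 MII libraries other than WT MII replicate 2 (the 4 deeper MII libraries below). In Nat10-ZcKO GV replicate 1 they took 0.00944% (4 counts, with all but Zp3 and Nlrp5 at 0), in Nat10-ZcKO GV replicate 2 they took 1.13%, and WT MII replicate 2 had 1 such count. The 16 adipocyte markers took 1.55% and 0.317% of counts in Nat10-ZcKO GV replicates 1 and 2 (15 and 11 genes with a count, Slc2a4 at 0 in both) and at most 0.0286% in every other library. The 15 granulosa and cumulus markers took 0.178 to 0.496% in 9 libraries, 0.942% in Nat10-ZcKO GV replicate 1 and 0 in WT MII replicate 2. This sum hides differences between stages. Ptx3, Tnfaip6 and Ptgs2 had 0 to 2 counts in each GV library, against 62 to 285, 31 to 83 and 8 to 40 in the 4 deeper MII libraries. Amh went the other way, from 13 to 93 counts in GV to 0 to 4. Each main result is therefore also given for the 8 libraries without these 3. Those 8 are the 3 WT GV libraries, Nat10-ZcKO GV replicate 3, WT MII replicate 1 and the 3 Nat10-ZcKO MII libraries. Stage and genotype are largely aligned in them, and only Nat10-ZcKO GV replicate 3 and WT MII replicate 1 separate the 2. This limits the p-values between stages given for the 8 libraries.

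The 70 genes held 11066 footprints over the 11 libraries. As shares of all counts, this was 0.738, 0.813 and 0.922% in WT GV oocytes (0.824 ± 0.0922%, SD, n = 3) while the Nat10-ZcKO GV libraries had 1.01, 0.685 and 0.753% (0.817 ± 0.173%, SD, n = 3). The WT MII libraries had 0.538 and 0.0831%, the second value resting on 4 footprints with an exact 95% interval of 0.0226 to 0.213%, and the Nat10-ZcKO MII libraries 0.699, 0.691 and 0.569% (0.653 ± 0.0726%, SD, n = 3). The 2 genotypes overlapped at the GV stage. Between the stages, the MII libraries lay at or below 0.699% and the WT GV libraries at or above 0.738%, with Nat10-ZcKO GV replicate 2 inside the MII range. Of the 70 genes, 63 had a footprint, 8 of them with 1 to 9 over all libraries, and 31 had 100 or more. The 7 without any were Eif1, Eif2s3y, Eif3j2, Eif4ebp3, Eif5a2, Eef1a2 and Eef1akmt3.

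**Figure D1:**
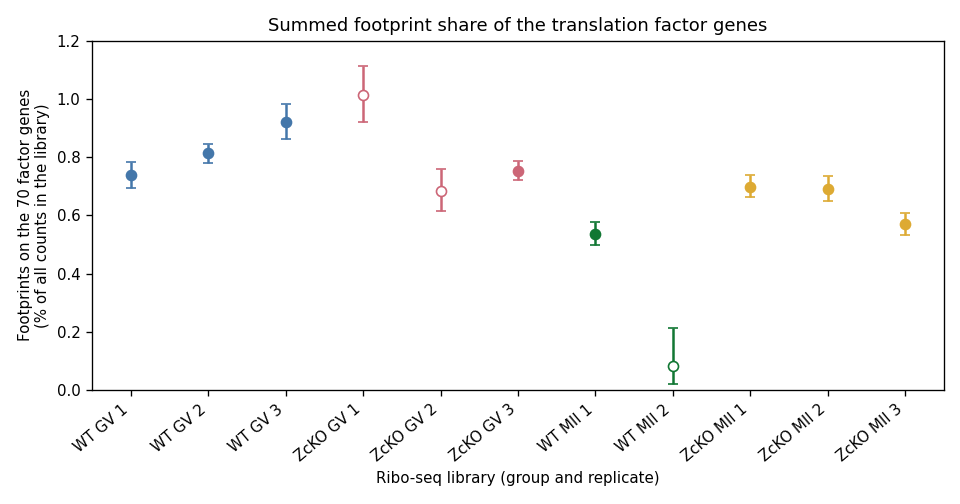
Share of all counts (percent, y axis) that fell on the 70 translation factor genes in each of the 11 Ribo-seq libraries (x axis); points are libraries coloured by group, bars are exact 95% intervals covering counting error only, and open points are the 3 libraries that stand apart. The WT GV libraries sit at 0.738 to 0.922%, the Nat10-ZcKO MII libraries at 0.569 to 0.699%, and WT MII replicate 2 at 0.0831% from 4 counts.

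Several of these factors have near-identical copies, which limits what footprints of the usual length, taken here as 28 bases, can assign to them. The first 28 coding bases of 3 pairs of sister genes are shown because the pairs differ in how many footprints they held, with capitals marking the bases that differ within a pair.
Eif1, chr11:100320130-100320157, plus strand: atgtccGctatccagaacctccaCtctt
Eif1b, chr9:120492811-120492838, plus strand: atgtccActatccagaacctccaAtctt
Eif4a1, minus strand of chromosome 11, not contiguous in the genome: atgtctgCGAgTCAGgATTCtCGATCca
Eif4a2, chr16:23107792-23107819, plus strand: atgtctgGTGgCTCCgCGGAtTACAAca
Eef1a1, chr9:78480627-78480654, minus strand: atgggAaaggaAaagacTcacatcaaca
Eef1a2, chr2:181155379-181155406, minus strand: atgggCaaggaGaagacAcacatcaaca
Positions are in GRCm38. These letters occurred at 11 further places of the genome for Eif1, 2 for Eif4a1 and 5 for Eef1a1, and at none for Eif1b, Eif4a2 and Eef1a2.

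Over the whole CDS, 100% of the 28-base windows of Eif1 and Eif3j1, 99.4% of those of Eif4a1, 95.9% of Eef1g, 95.1% of Eif2s3x and 89.6% of Eef1a1 were found elsewhere too. Eif1, a start codon selection factor, had 0 footprints in all 11 libraries, which allows up to 10.7 CPM (CPM is the count scaled to a common library total; 3 counts are the limit) in the deepest of them, while its sister Eif1b had 281. The helicase genes Eif4a1 and Eif4a2 had 8 and 202 footprints. In the acRIP-seq libraries, whose fragments need not come from the CDS, Eif1 and Eif4a1 did have counts, 118 and 120 over both libraries. In all, 13 of the 70 genes had at least 50% of their windows elsewhere, and these held between 0 and 139 footprints each, whereas 42 genes had under 5%. The handling of multiply aligned fragments is not given in the sources used here, for the Ribo-seq files, and its part in the low counts of these 13 genes was not tested.

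**Figure D2:**
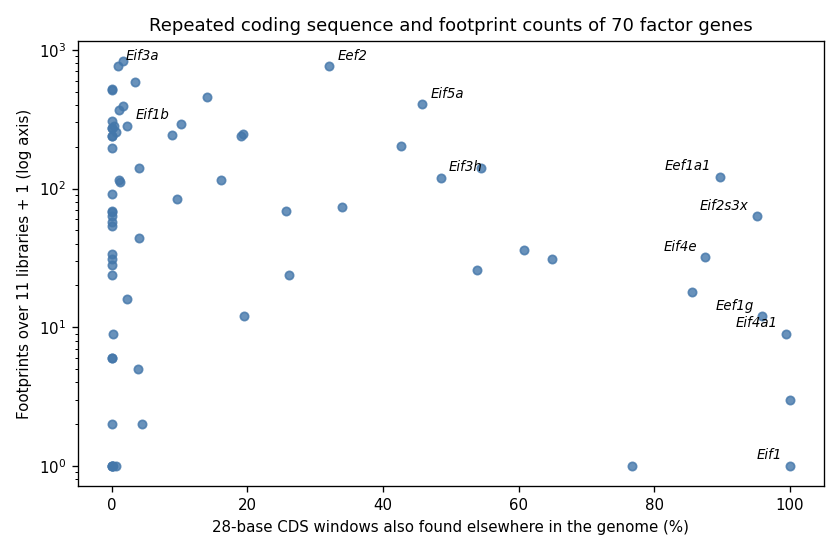
Percentage of each gene's 28-base CDS windows that also occur elsewhere in GRCm38 (x axis) against its footprints over the 11 libraries plus 1 (y axis, log scale); each point is 1 of the 70 factor genes. Eif1, with 100% of windows elsewhere, has 0 footprints, while Eif1b, at 2.24%, has 281; genes with few repeated windows span the whole range of counts.

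Levels of different genes were compared per length, as TPM, which divides counts by CDS length before scaling. In WT GV oocytes Eif1b (chr9:120492232-120495330, plus strand) was the highest factor at 1208 ± 134 TPM (SD, n = 3), with 1204, 1076 and 1345 TPM in the 3 libraries, above every other factor in each of them. Next were Eif3k, an eIF3 subunit, at 615 ± 93.6 TPM and Eif5a, which helps the ribosome through stalling peptide bonds and carries the amino acid hypusine, at 590.2 ± 161 TPM, which did not differ beyond their spread. Eef2, the translocation factor, followed at 369 ± 46.6 TPM and did not differ beyond its spread from the eIF3 subunit Eif3g at 360.4 ± 29.5 TPM. Then came Eif2b1, the alpha subunit of eIF2B, at 320.0 ± 31.2 TPM and Eif1ax, the X-linked eIF1A gene, at 304 ± 102 TPM. The last 5 of the 12 highest, Eif3i (245 ± 67.2), Eif3a (237 ± 68.1), Eif3b (235 ± 119), Eif4h (231 ± 84.6) and Eif4e3 (211 ± 28.2 TPM), all lay within each other's spread. Thus 5 of the 12 were eIF3 subunits, while Eef1a1, the main aminoacyl-tRNA carrier of most tissues, ranked at place 18 at 127 ± 51.1 TPM with the limit on its repeated sequence given above. That limit also bears on Eif5a and Eef2, at places 3 and 4, with 45.7% and 32.0% of their windows found elsewhere.

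The clearest differences were between the stages. Footprints of 2 eIF2 alpha kinases, Eif2ak1 and Eif2ak4, rose from GV to MII, and those of 10 factors fell: 4 eIF3 subunits, the scanning factors Eif1b and Eif1ax, the helicase cofactor Eif4b, and the elongation factors Eef1a1, Eef1d and Eef2. These are the genes with an adjusted p under 0.05 among the 33 that passed edgeR's filter on low counts, in a model of stage and genotype over all 11 libraries. Over all 2991 genes tested, 12.6% rose and 20.9% fell, so 10 of 33 is a larger share than the background and 2 of 33 a smaller one, with no test of the list. The median log2 change was -0.79 for the 33 members and -0.48 for all genes tested. In the 8 libraries, 24 of 36 members passed, 5 upwards and 19 downwards, including all 12 above, beside 30.4% and 33.9% of the 3094 genes tested, with medians of -1.05 and -0.14. The number of calls depended on the libraries: without Nat10-ZcKO GV replicate 3 there were 5, without WT MII replicate 1 there were 3, and without Nat10-ZcKO MII replicate 1 or 3 there were 6 each, in fits where 6.11 to 12.3% of all genes fell and 2.22 to 8.79% rose. Among the 10 genes that fell, Eif3h kept its call in all 11 fits without 1 library and Eif3g in 3, while Eif1ax was tested in 4 of them and called in 3. With all genes of at least 1 count tested, Eif2s3x was the only member called. A count of 0 in WT MII replicate 2 allows up to 623 CPM there. Where that library had no count, overlap between stages is therefore described for the 4 deeper MII libraries. The smooth muscle marker list also separated the stages, at 0.0759 to 0.484% of counts in GV and 0.0163 to 0.0273% in MII libraries (all 10 genes had a count in some library), of which Myh11 carried the separation (0.0603 to 0.0891% in GV, at most 0.0123% in MII); the other 9 genes overlapped between stages, and the part of such cells in the result was not tested. Single granulosa and cumulus markers separated the stages too (Ptx3, Tnfaip6 and Ptgs2 higher and Amh lower in the deeper MII libraries), and their part was not tested either. In pooled oocytes, a change in ribosomes per mRNA, in mRNA amount and in the share of a cell type cannot be told apart.

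Both eIF2 alpha kinases with enough counts rose with all 11 libraries, though neither call held in every fit that left out a library. Eif2ak1 (HRI, the heme-regulated kinase; chr5:143817788-143904251) had CPM values of 151, 147 and 177 (WT GV), 0, 77.4 and 83.0 (Nat10-ZcKO GV), 482 and 208 (WT MII) and 548, 968 and 619.9 (Nat10-ZcKO MII). Every MII library lay above every GV library, also the shallow WT MII replicate 2, whose value is 1 footprint. The log2 change was 2.37 ± 0.94 (SE; edgeR adjusted p = 0.0406) and 2.17 ± 0.36 in the 8 libraries (edgeR adjusted p = 1.79e-05). Leaving out 1 library at a time kept the call in 2 of 11 fits (edgeR adjusted p from 0.00203 to 0.141), and in the WT libraries alone it was lost (edgeR adjusted p = 0.107). Eif2ak4 (GCN2, the kinase that senses uncharged tRNA; chr2:118388618-118475234) had CPM values of 89.4, 100.2 and 52.0 (WT GV), 23.6, 0 and 54.1 (Nat10-ZcKO GV), 259.6 and 0 (WT MII) and 325, 320.3 and 207 (Nat10-ZcKO MII). The 4 deeper MII libraries were all above the GV libraries, and WT MII replicate 2 had no count, which allows up to 623 CPM there. Its log2 change was 2.03 ± 0.75 (edgeR adjusted p = 0.0272), and 1.81 ± 0.37 in the 8 libraries (edgeR adjusted p = 0.000247), and 6 of the 11 fits kept the call (edgeR adjusted p from 0.00314 to 0.136). The other kinases, Eif2ak2 (PKR, activated by double-stranded RNA) and Eif2ak3 (PERK, the kinase of the endoplasmic reticulum), had 5 and 33 footprints in all and were not tested. Summed, the 4 kinases took 0.0241, 0.0265 and 0.0239% of counts (WT GV), 0.0118, 0.0116 and 0.0148% (Nat10-ZcKO GV), 0.0801 and 0.0208% (WT MII) and 0.0915, 0.131 and 0.0852% (Nat10-ZcKO MII).

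The kinases' substrate and its exchange factor had no call between stages with all 11 libraries under edgeR's filter. The eIF2 subunits Eif2s1, Eif2s2 and Eif2s3x had 35, 17 and 62 footprints over 11 libraries and were not tested between stages with all 11, and Eif2s3y had none. In the 8 libraries Eif2s3x, encoding the gamma subunit, was tested and fell (-4.76 ± 0.92 on the log2 scale, edgeR adjusted p = 0.000124); its counts were 7, 19 and 9 in WT GV and 24 in Nat10-ZcKO GV replicate 3 against 2 in the 4 deeper MII libraries together, and 95.1% of its windows are repeated. Among the 5 eIF2B subunits, Eif2b1 had CPM values of 254, 304 and 291 (WT GV), 23.6, 19.3 and 141 (Nat10-ZcKO GV), 452 and 0 (WT MII) and 537, 620.2 and 451 (Nat10-ZcKO MII). Its 4 deeper MII libraries were above all GV libraries, and the log2 change was 1.56 ± 0.94 (edgeR adjusted p = 0.180), which did not pass; in the 8 libraries it did (1.13 ± 0.32, edgeR adjusted p = 0.00393). The delta subunit gene Eif2b4 moved the other way in the 8 libraries, by -1.77 ± 0.74 (edgeR adjusted p = 0.0400), and Eif2b2 was at -0.03 ± 0.53 (edgeR adjusted p = 0.963). Eif2b3 and Eif2b5, with 68 and 30 footprints, were not tested.

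Both scanning factors tested fell. Eif1b had CPM values of 323, 286 and 354 (WT GV), 0, 58.0 and 357 (Nat10-ZcKO GV), 44.5 and 0 (WT MII) and 10.6, 40.9 and 25.0 (Nat10-ZcKO MII). The 4 deeper MII libraries were below the WT GV libraries, and among the GV libraries only Nat10-ZcKO GV replicate 1, without a count, overlapped with them. The log2 change was -2.97 ± 0.80 (edgeR adjusted p = 0.00328) and -3.65 ± 0.42 in the 8 libraries (edgeR adjusted p = 1.23e-07). Eif1ax (chrX:159372178-159389928) had CPM values of 68.7, 100.2 and 135 (WT GV), 47.2, 38.7 and 65.0 (Nat10-ZcKO GV), 37.1 and 0 (WT MII) and 5.32, 13.6 and 12.5 (Nat10-ZcKO MII). The GV and the 4 deeper MII libraries did not overlap, although the highest MII value, from 5 footprints, was close to the lowest GV value, from 2. Its log2 change was -2.08 ± 0.79 (edgeR adjusted p = 0.0308) and -2.18 ± 0.62 in the 8 libraries (edgeR adjusted p = 0.00390). The autosomal Eif1a and the related Eif1ad, with 23 and 8 footprints, were not tested.

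eIF3, the large scaffold that joins the small subunit to the mRNA, had the most calls and also the most tested genes. Its 14 genes together took 0.255, 0.286 and 0.345% of counts (WT GV), 0.295, 0.203 and 0.281% (Nat10-ZcKO GV), 0.1001 and 0.0415% (WT MII) and 0.133, 0.134 and 0.0651% (Nat10-ZcKO MII). The GV and MII libraries did not overlap in this sum. Of 10 subunits tested, 4 fell and none rose, with 9 of 10 log2 changes below 0 and a median of -1.88; in the 8 libraries 8 of 10 fell. Over all genes tested, 20.9% fell with a median of -0.48, and 33.9% with a median of -0.14 in the 8 libraries. Eif3h (chr15:51786558-51865523), a subunit of the outer arms, had CPM values of 103, 118 and 72.8 (WT GV), 189, 271 and 112 (Nat10-ZcKO GV), 29.7 and 0 (WT MII) and 31.9, 0 and 0 (Nat10-ZcKO MII). With all 11 libraries it had the largest drop of the group, -3.18 ± 0.77 on the log2 scale (edgeR adjusted p = 0.00105). Its GV and 4 deeper MII libraries did not overlap, and 48.5% of its windows are repeated. Eif3f, which like Eif3h carries an MPN domain, had CPM values of 110.0, 89.5 and 93.6 (WT GV), 142, 58.0 and 137 (Nat10-ZcKO GV), 14.8 and 0 (WT MII) and 10.6, 61.3 and 0 (Nat10-ZcKO MII). The highest MII value exceeded only the lowest GV value, and the log2 change was -2.48 ± 0.75 (edgeR adjusted p = 0.00766).

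Eif3k, the factor next to Eif1b by TPM in WT GV oocytes, had CPM values of 282, 351 and 374 (WT GV), 94.4, 96.7 and 505 (Nat10-ZcKO GV), 51.9 and 0 (WT MII) and 112, 54.5 and 43.8 (Nat10-ZcKO MII). Nat10-ZcKO MII replicate 1 lay above Nat10-ZcKO GV replicates 1 and 2, and the other deeper MII libraries lay below every GV library. The log2 change was -2.41 ± 0.82 (edgeR adjusted p = 0.0167). Eif3g, an RNA-binding subunit, had CPM values of 261, 293 and 249.6 (WT GV), 165, 309 and 217 (Nat10-ZcKO GV), 44.5 and 0 (WT MII) and 90.4, 109 and 50.1 (Nat10-ZcKO MII). Its GV and 4 deeper MII libraries did not overlap, and its log2 change was -2.04 ± 0.79 (edgeR adjusted p = 0.0360). In the 8 libraries the changes of these 4 were -2.82 ± 0.67, -2.84 ± 0.65, -3.01 ± 0.35 and -2.04 ± 0.38 in the same order. Eif3a, the largest subunit, had CPM values of 536, 730.0 and 947 (WT GV), 637, 503 and 660.4 (Nat10-ZcKO GV), 259.6 and 0 (WT MII) and 287, 259 and 132 (Nat10-ZcKO MII). Its GV and 4 deeper MII libraries did not overlap either. With 11 libraries its log2 change of -1.77 ± 0.93 had an edgeR adjusted p of 0.122, and in the 8 libraries -1.70 ± 0.29 with an edgeR adjusted p of 3.18e-05. Eif3b, the RNA-recognition-motif scaffold, had CPM values of 330.0, 293 and 686 (WT GV), 449, 38.7 and 386 (Nat10-ZcKO GV), 51.9 and 415 (WT MII) and 101, 198 and 56.4 (Nat10-ZcKO MII). Its value in WT MII replicate 2 is 2 footprints, and leaving out the 3 libraries turned a log2 change that did not pass (-1.88 ± 0.85, edgeR adjusted p = 0.0725) into one that did (-2.40 ± 0.41, edgeR adjusted p = 3.21e-05). Eif3c and Eif3l also passed in the 8 libraries (-1.73 ± 0.35 and -0.89 ± 0.39), and Eif3d did not (-0.57 ± 0.52, edgeR adjusted p = 0.343). Eif3i stood against the group: it had CPM values of 144, 172 and 239 (WT GV), 94.4, 96.7 and 112 (Nat10-ZcKO GV), 222 and 0 (WT MII) and 282, 266 and 244 (Nat10-ZcKO MII), so that the highest WT GV value lay inside the range of the deeper MII libraries, and a log2 change of 0.59 ± 0.77 (edgeR adjusted p = 0.557). Eif3e, Eif3j1, Eif3j2 and Eif3m, with 25, 2, 0 and 30 footprints, were not tested.

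The cap-binding and helicase group was mixed. Its 10 genes took 0.121 to 0.236% of counts in the GV libraries and 0.138 to 0.189% in the 4 deeper MII libraries. Eif4b, a cofactor of the eIF4A helicase, had CPM values of 220.0, 208 and 260.0 (WT GV), 236, 251 and 220.1 (Nat10-ZcKO GV), 22.2 and 0 (WT MII) and 53.2, 143 and 43.8 (Nat10-ZcKO MII). The GV and the 4 deeper MII libraries did not overlap, and the log2 change was -2.20 ± 0.79 (edgeR adjusted p = 0.0237) and -2.27 ± 0.45 in the 8 libraries. Eif4h, the related cofactor, had CPM values of 82.5, 139.6 and 177 (WT GV), 637, 232 and 310.3 (Nat10-ZcKO GV), 81.6 and 0 (WT MII) and 106, 129 and 81.4 (Nat10-ZcKO MII). Its log2 change was -1.55 ± 0.76 (edgeR adjusted p = 0.0929), and in the 8 libraries -1.43 ± 0.38 (edgeR adjusted p = 0.00234), where it was called. Eif4e3, a cap-binding relative of eIF4E, went the other way with CPM values of 89.4, 100.2 and 114 (WT GV), 0, 77.4 and 50.5 (Nat10-ZcKO GV), 208 and 0 (WT MII) and 495, 129 and 376 (Nat10-ZcKO MII). The 4 deeper MII libraries were all above the GV libraries, the log2 change was 1.71 ± 0.79 (edgeR adjusted p = 0.0770), and it was called in the 8 libraries (1.68 ± 0.45, edgeR adjusted p = 0.00266). The scaffold genes Eif4g1, Eif4g2 and Eif4g3 and the helicase Eif4a2 had log2 changes between -0.74 and 0.19 and were not called in either fit. Eif4a3, the helicase of the exon junction complex, was at -0.57 ± 0.69 (edgeR adjusted p = 0.526). The eIF4E-binding repressors Eif4ebp1, Eif4ebp2 and Eif4ebp3 had 11, 1 and 0 footprints, and 7 of these 12 were in Nat10-ZcKO GV replicate 1.

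Among the joining factors, Eif5b, the GTPase of subunit joining, had CPM values of 151, 186 and 166 (WT GV), 236, 1025 and 217 (Nat10-ZcKO GV), 326 and 0 (WT MII) and 468, 702 and 845 (Nat10-ZcKO MII). Its Nat10-ZcKO GV replicate 2 exceeded every other library, and its log2 change was 0.39 ± 0.87 with all libraries (edgeR adjusted p = 0.741) but 1.15 ± 0.33 in the 8 libraries (edgeR adjusted p = 0.00483). The anti-association factor Eif6 and Eif5a were not called in either fit, at -0.29 ± 0.68 and 0.28 ± 0.79. Eif5, the GTPase activator of eIF2, and the initiator tRNA binders Eif2a and Eif2d had 72, 56 and 15 footprints and were not tested between stages.

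The elongation factors Eef2, Eef1a1 and Eef1d fell. Eef2 (chr10:81176631-81182498), the factor with the most footprints of the elongation group, had CPM values of 811, 776 and 624 (WT GV), 2148, 619 and 516 (Nat10-ZcKO GV), 141 and 0 (WT MII) and 245, 177 and 50.1 (Nat10-ZcKO MII). No MII library reached the lowest GV library, and the log2 change was -2.83 ± 0.99 (edgeR adjusted p = 0.0206) and -2.22 ± 0.36 in the 8 libraries (edgeR adjusted p = 1.39e-05). Its kinase Eef2k, which inactivates eEF2, did not follow it: the gene had CPM values of 96.2, 165 and 187 (WT GV), 118, 348 and 177 (Nat10-ZcKO GV), 245 and 0 (WT MII) and 271, 286 and 194 (Nat10-ZcKO MII) and a log2 change of 0.13 ± 0.74 (edgeR adjusted p = 0.895). Eef1a1 (chr9:78478449-78489151) had CPM values of 103, 107 and 198 (WT GV), 354, 0 and 108 (Nat10-ZcKO GV), 0 and 0 (WT MII) and 42.6, 20.4 and 0 (Nat10-ZcKO MII). Apart from a Nat10-ZcKO GV library at 0, all GV libraries were above all MII libraries, and 3 of 5 MII libraries held no footprint. Its log2 change was -3.23 ± 0.79 (edgeR adjusted p = 0.00114), the largest drop among the members tested with all 11 libraries, with most of its windows repeated. Eef1d, the delta subunit of the nucleotide exchange factor that reloads eEF1A, had CPM values of 199, 175 and 374 (WT GV), 47.2, 96.7 and 343 (Nat10-ZcKO GV), 14.8 and 0 (WT MII) and 69.2, 40.9 and 50.1 (Nat10-ZcKO MII). Its stages overlapped through Nat10-ZcKO GV replicate 1, and the log2 change was -2.54 ± 0.79 (edgeR adjusted p = 0.00943) and -3.23 ± 0.41 in the 8 libraries. The exchange factor genes Eef1b2 and Eef1g and the synthetase scaffold gene Eef1e1 had 68, 11 and 27 footprints and were not tested between stages. Eefsec, which delivers selenocysteine, had 62 footprints and passed only in the 8 libraries (-2.73 ± 0.76, edgeR adjusted p = 0.00355).

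Of the termination factors, Gspt1 and Gspt2 had log2 changes of -0.77 ± 0.74 and -0.79 ± 0.73 and were not called with 11 libraries. In the 8 libraries Gspt2, the intronless copy, passed narrowly (-1.21 ± 0.53, edgeR adjusted p = 0.0494) and Gspt1 did not (-0.60 ± 0.37, edgeR adjusted p = 0.159). Etf1 had 53 footprints and was not tested. The 5 methyltransferases of the elongation factors had 33 footprints in all and none was tested.

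**Figure D3:**
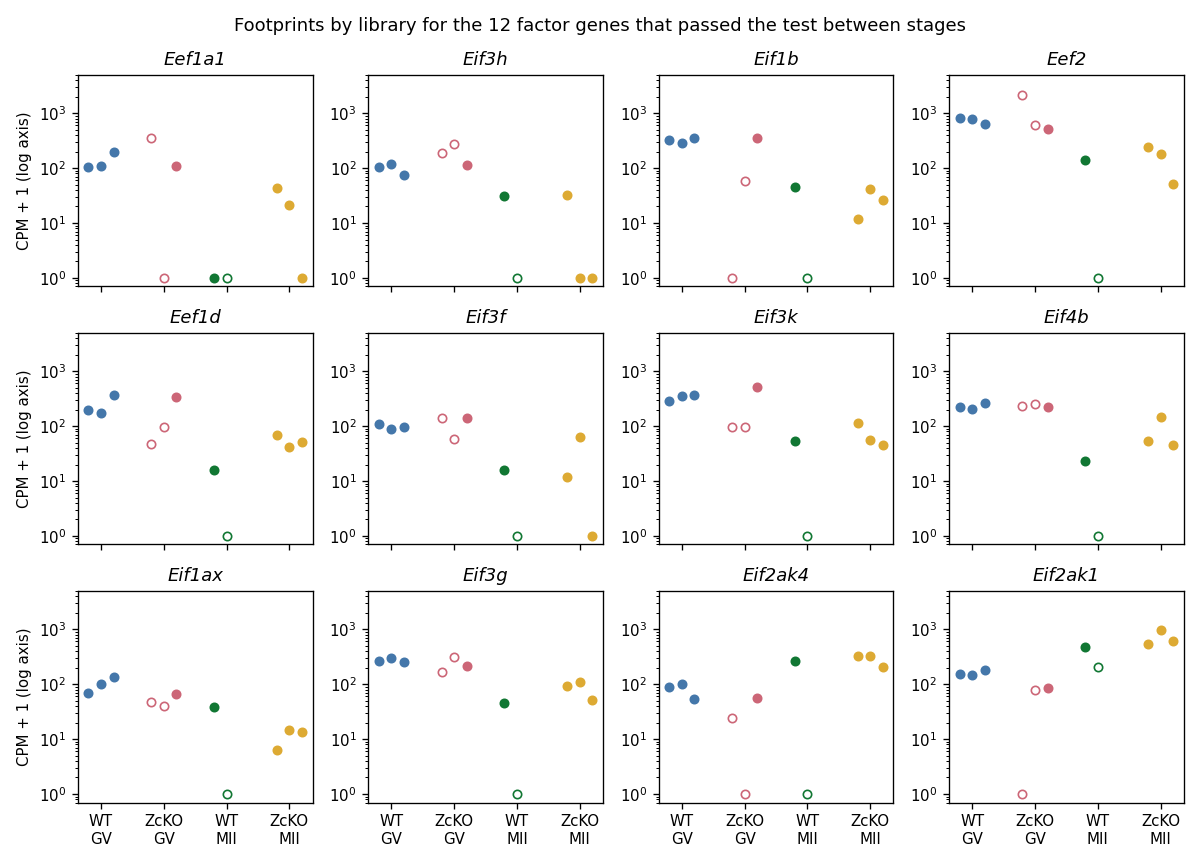
Footprints as CPM + 1 (y axis, log scale) in every library of the 4 groups (x axis) for the 12 factor genes with an edgeR adjusted p under 0.05 between stages; points are libraries, open points the 3 that stand apart, and a value of 1 is a count of 0. The 10 genes that fell have their 4 deeper MII libraries below the WT GV libraries, and Eif2ak4 and Eif2ak1 have them above.

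**Figure D4:**
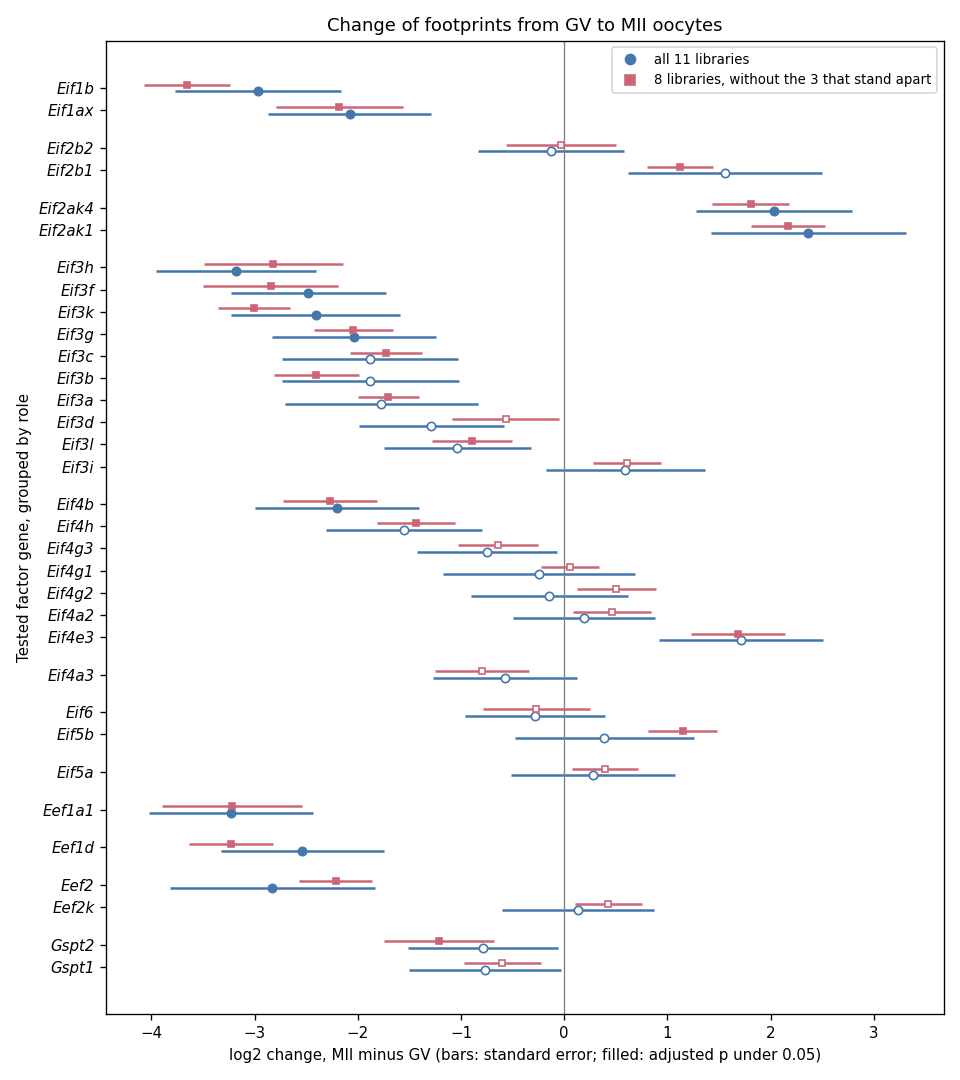
Log2 change from GV to MII (x axis, MII minus GV) of the 33 tested factor genes, grouped by role along the y axis; circles are the fit of all 11 libraries, squares the fit of 8 libraries, bars are standard errors and filled symbols have an adjusted p under 0.05. In the eIF3 block 9 of 10 genes lie below 0 and Eif3i lies above it, while both eIF2 alpha kinases lie above 2 in the fit of all libraries.

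Between genotypes at the GV stage, no member was called. Of 29 members tested, 0 rose and 0 fell by edgeR's quasi-likelihood test, beside 0% of 1765 genes in either direction; at an unadjusted p under 0.05 there were 2 members each way, and DESeq2 called none either. The 4 with the smallest p were Eif4g2, Eif4h, Eif2b1 and Gspt2, each with an edgeR adjusted p of 0.900. Eif4g2 (DAP5, an eIF4G relative that works without eIF4E) had 48.1, 107 and 114 CPM in WT GV oocytes against 401, 406 and 134 CPM in the knockout, a log2 change of 1.85 ± 0.64. Eif4h had the values given above, all 3 Nat10-ZcKO GV libraries above the WT GV libraries, and a log2 change of 1.62 ± 0.60. Eif2b1 changed by -1.75 ± 0.70 and Gspt2, at 158, 143 and 83.2 against 0, 19.3 and 57.7 CPM, by -1.68 ± 0.74, and in both the Nat10-ZcKO libraries were all below the WT libraries.

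In this comparison 2 of the 3 Nat10-ZcKO libraries are replicates 1 and 2, where adipocyte markers are high and oocyte markers low; the part of such cells in the result was not tested. Without replicate 3, the library like the WT ones in its markers, 5 of 28 members were called (Eif4g2 higher, and Eif1b, Eif2b1, Eif3k and Gspt2 lower), beside 10.6% of 1858 genes that rose and 10.1% that fell. With replicate 3 as the only Nat10-ZcKO library, assumed to vary like the WT GV libraries, Eif4h was the only call of 42 members, with a log2 change of 1.45 ± 0.37 (edgeR adjusted p = 0.0234), beside 0.98% of 3879 genes that rose and 1.03% that fell. There Eif4g2 changed by 0.76 ± 0.41, Eif2b1 by -0.81 ± 0.38 and Gspt2 by -1.01 ± 0.47, and Eif1b and Eif3k turned from values below 0 (-0.85 ± 0.92 and -0.29 ± 0.73) to values above 0 (0.36 ± 0.33 and 0.79 ± 0.31), none of them called. By the rule of a 2-fold difference of mean TPM + 1, which has no test, 13 of 70 members were higher and 12 lower in Nat10-ZcKO GV, beside 22.4% and 12.1% of 22359 genes, and with replicate 3 alone 5 and 8, beside 7.67% and 18.2%. Genes without a count cannot pass it, and 13004 of all genes had a count in a GV library, against 62 of the 70 members.

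In MII oocytes too, no member was called between genotypes. Of 25 tested, 0 rose and 0 fell by edgeR, beside 0% of 2097 genes that rose and 0.191% that fell. No member had an unadjusted p under 0.05. DESeq2 called none, but it gave no adjusted p for Eif4g2, Eif4a3, Eif2b2, Eif4g3 and Eif3c, so it could not call these. The smallest p-values upwards were those of Eif4g2, with 96.4 and 0 CPM in WT oocytes against 309, 334 and 238 CPM in the knockout (log2 change 1.70 ± 1.09), and Eif4a3, with 37.1 and 0 against 106, 68.2 and 100.2 CPM (1.30 ± 1.08). Downwards they were Eif2b2, with 81.6 and 0 against 79.8, 20.4 and 43.8 CPM (-0.66 ± 0.96), and Eif4g3, with 126 and 0 against 106, 81.8 and 81.4 CPM (-0.37 ± 0.87); all 4 had an edgeR adjusted p of 0.997. The groups overlapped for Eif2b2 and Eif4g3. WT MII replicate 2 held 4 footprints on the 70 genes (2 on Eif3b, 1 on Eif2ak1 and 1 on Eif5), so the comparison rests on WT MII replicate 1. Without replicate 2, assuming the lone WT library to vary like the Nat10-ZcKO ones, 0 of 29 members were called, beside 0% of 2924 genes that rose and 0.205% that fell, and Eif4g2 changed by 1.51 ± 0.61 (edgeR adjusted p = 0.629). Without replicate 1, 16 of 29 members were called higher in Nat10-ZcKO, beside 47.3% of 2809 genes, and 0 lower, beside 4.31%. By the 2-fold rule 39 of 70 members were higher in Nat10-ZcKO MII and 6 lower, beside 25.9% and 6.75% of 22359 genes. Without WT MII replicate 2 it was 20 and 7, beside 16.8% and 10% of genes. Genes without a count cannot pass this rule, and only 11147 of all genes had a count in an MII library, against 60 of the 70 members. The members' larger shares are therefore not read as a result about the factors.

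The change from GV to MII was not shown to differ between genotypes for any member. In the interaction test 0 of 37 members were called, beside 0.0259% of 3863 genes upwards and 0.88% downwards, and 0 at an unadjusted p under 0.05 (DESeq2 called none). In the 8 libraries this test rests on a lone Nat10-ZcKO GV and a lone WT MII library, so only sizes are given. The median difference of log2 changes there was 0.37 for the members and 0.20 for all genes tested. The largest difference of log2 changes among the members with the smallest p was that of Eef1a1, 4.81 ± 2.64 (edgeR adjusted p = 0.806), which had 0 counts in both WT MII libraries and 8, 3 and 0 in Nat10-ZcKO MII, so that this value depends on the prior count. Gspt2 had 2.68 ± 1.54, Eif3h -1.44 ± 1.63 and Eif1ax -0.17 ± 1.26. Without WT MII replicate 1, 13 of 43 members passed, all upwards, beside 15.8% of 5532 genes upwards and 1.32% downwards, with WT MII represented by its replicate of 4815 counts.

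In acRIP-seq of WT GV oocytes the 70 genes took 1.18% of counts in both libraries, 1377 of 116232 in anti-IgG and 11412 of 970997 in anti-ac4C. Of the 70, 49 had at least 50 counts over both libraries, 14 had 1 to 49 and 7 had none (Eif2s3y, Eif2ak2, Eif3j2, Eif4ebp1, Eif4ebp3, Eef1a2 and Eef1akmt3). With 1 library per antibody there is no test, and the exact 95% intervals of the ratios cover counting error only. A ratio of CPM above 2 was found for 11 of the 49, beside 32.8% of the 4680 genes with as many counts, and the median ratio was 1.23 for the factors and 1.27 for all these genes. The lower bound exceeded 2 for 5 of the 49, beside 9.38% of genes, and it exceeded 1 for 19, beside 32.9% of genes. The upper bound was under 1 for 11, beside 19.2% of genes. The share of factors with a ratio above 2 was thus below the background and the other shares were above it, with no test. With TMM factors, 16 of the 49 were above 2, or 32.7% beside 36.7% of genes.

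Among genes with an anti-IgG count the highest ratios belonged to Eif3c (chr7:126546455-126566411), at 9.46 (3.66 to 34.9, 316 anti-ac4C and 4 anti-IgG counts), to Eif4a3, at 7.60 (2.06 to 63.4, 127 anti-ac4C and 2 anti-IgG counts), and to Eif3e, at 4.43 (1.18 to 37.3, 74 anti-ac4C and 2 anti-IgG counts). For Eif2d, Eif2b3, Eif2a and Eif3m the anti-IgG library held no count, against 100, 64, 64 and 63 anti-ac4C counts, so that with 3 counts as the limit they were at least 3.99, 2.55, 2.55 and 2.51-fold higher in anti-ac4C. The exact intervals, which the counts above use, begin lower for these genes, at 3.19, 2.02, 2.02 and 1.99, so that Eif3m is not among the 5. Eif6, Eif4g1, Eif2s1 and Gspt1 were the other genes above 2, at 2.86, 2.76, 2.45 and 2.11. The lowest ratios were those of Eif4ebp2, the eIF4E repressor, at 0.177 (0.108 to 0.295, 43 anti-ac4C and 29 anti-IgG counts), Eef1e1, a scaffold of the tRNA synthetase complex, at 0.197 (0.120 to 0.327, 46 anti-ac4C and 28 anti-IgG counts), and Eef1g, at 0.247 (0.159 to 0.393, 64 anti-ac4C and 31 anti-IgG counts). The eEF1B subunit genes Eef1b2, Eef1d and Eef1g had a summed ratio of 0.392 (0.324 to 0.478). Eef1a1, which the study used as a negative control, was at 1.21 (0.862 to 1.75, 374 anti-ac4C and 37 anti-IgG counts), an interval that holds 1. The eIF3 subunit gene Eif3g was at 0.375 (0.279 to 0.510, 188 anti-ac4C and 60 anti-IgG counts). Among the genes that fell from GV to MII, Eif3g, Eef1d, Eif3k and Eif1ax (4 of the 9 with at least 50 counts) had their whole interval below 1, Eef2 (1.38, 1.02 to 1.91) had it above 1 and 4 had intervals that hold 1. Over all genes with as many counts, 19.2% had the whole interval below 1 and 32.9% above 1, and a link to the change between stages was not tested. The 2 kinases that rose were at 1.75 (1.07 to 3.05, Eif2ak1) and 1.28 (0.670 to 2.75, Eif2ak4).

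**Figure D5:**
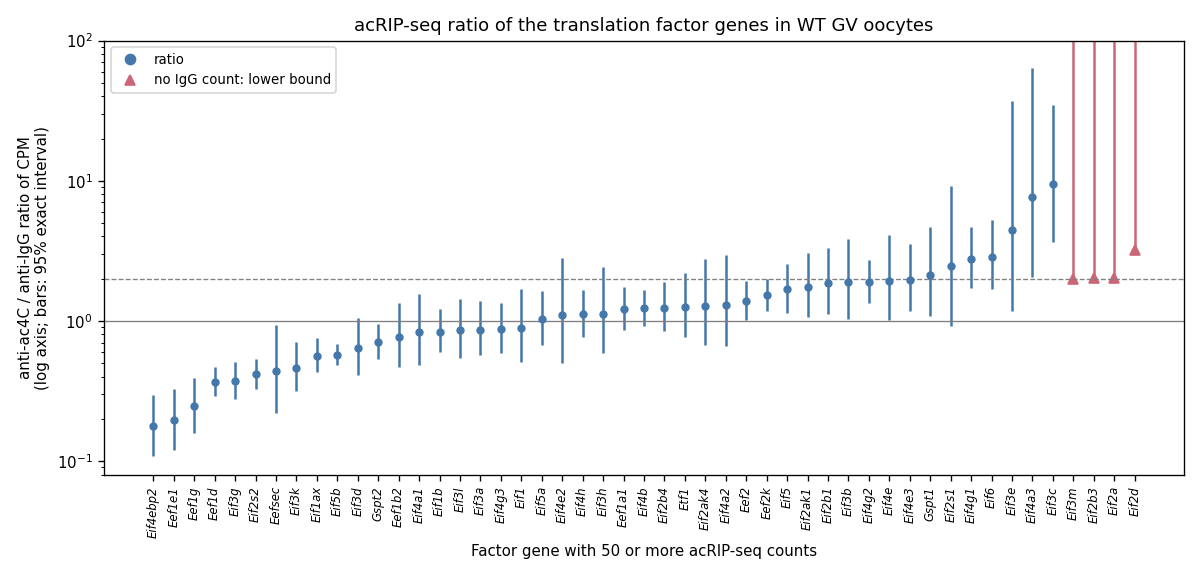
Ratio of anti-ac4C to anti-IgG CPM (y axis, log scale) for the 49 factor genes with at least 50 acRIP-seq counts in WT GV oocytes, sorted along the x axis; bars are exact 95% intervals covering counting error only, and triangles mark the lower bound of the exact interval of the 4 genes without an anti-IgG count. The solid line is a ratio of 1 and the dashed line 2. Where there is an anti-IgG count the ratios run from 0.177 (Eif4ebp2) to 9.46 (Eif3c).

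The tail sequence of the mRNAs was read for the letters of the cytoplasmic polyadenylation element (CPE), TTTTAT and TTTTAAT, on the transcript strand in the last 150 bases of the annotated 3' UTR; both spellings cannot match at the same start. Of the 5 members that rose in the 8 libraries (Eif2ak1, Eif2ak4, Eif2b1, Eif4e3 and Eif5b), 1 had them. Of the 16 that fell and have 150 bases of annotated UTR, 3 had them, as did 13 of all 58 members and 23.4% of 17982 genes with such a UTR. A match is not shown to be a working site. The 4 sites are given in GRCm38 with the element in capitals.
Eif4e3, chr6:99625215-99625244, minus strand: attttgagaaaaTTTTATttttgaacttta
Eif1b, chr9:120495212-120495241, plus strand: gtttgttgttagTTTTATtttcacttgact
Eif1ax, chrX:159389887-159389916, plus strand: attcagtggatgTTTTATgctgcacaaata
Eef1a1, chr9:78478506-78478535, minus strand: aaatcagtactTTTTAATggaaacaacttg
Eif4e3 rose and the other 3 fell.

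Of 30 further genes of cytosolic translation, 13 were tested between stages with all 11 libraries, and 2 rose and 5 fell, beside 12.6% and 20.9% of all genes tested. Mknk1, a kinase of eIF4E, and Ppp1r15a (GADD34), which recruits the phosphatase of eIF2 alpha, rose, by 2.76 ± 0.83 and 2.09 ± 0.74 on the log2 scale (edgeR adjusted p = 0.00711 and 0.0223). Both have few footprints: Ppp1r15a had 3, 9 and 2 counts (WT GV), 1, 3 and 1 (Nat10-ZcKO GV), 12 and 4 (WT MII) and 10, 18 and 14 (Nat10-ZcKO MII). The 5 that fell were Pdcd4, an inhibitor of eIF4A, Mtor, Paip2, an inhibitor of poly(A)-binding protein, Abcf1, and Pabpc1l, the poly(A)-binding protein of oocytes (-2.42 ± 0.98, edgeR adjusted p = 0.0436). Paip1, an activator of poly(A)-binding protein, and the helicase Ddx3x were at 1.55 ± 1.04 and 1.17 ± 1.14 and did not pass. Neither of the 2 tested mitochondrial translation factors (of 9), Tsfm and Gfm1, was called. Between genotypes none of the 8 cytosolic genes tested in GV was called, beside 0% of 1765 genes. Nor was any of the 10 tested in MII, beside 0% of 2097 genes that rose and 0.191% that fell. No mitochondrial factor was tested between genotypes in GV, so none could be called there, and neither of the 2 tested in MII was called.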

How the data were processed

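Ribo-seq was analysed in 11 mouse oocyte libraries and acRIP-seq in 2. The authors deposited raw counts per gene (CDS counts for Ribo-seq), and the submitters' processing notes name cutadapt, STAR, HTSeq and mm10, without versions. The acRIP-seq files also hold 5 summary rows, kept out of library sizes; 46.7% of anti-IgG and 17.1% of anti-ac4C fragments were on no feature. Library depth was 4815 to 279464 counts, and a count of 0 allows 10.7 to 623 CPM (3 counts). Intervals and limits are exact at 95% and cover counting error only, since reads carry no molecular identifiers.

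Genes were matched to GENCODE M21 (GRCm38; 22399 of 22442), which gave CDS lengths for TPM. edgeR 4.0.16 in R 4.3.3 (filterByExpr, TMM scaling, quasi-likelihood test, Benjamini-Hochberg adjustment over all genes tested) compared genotypes in GV (6 libraries) and in MII (5), stages with genotype as a covariate (11), and stage by genotype (11). Calls have an adjusted p under 0.05. Errors of log2 changes (SE) are the size of the change divided by the square root of edgeR's F statistic, not an error estimated by the model. Where a group has counts of 0, the change and its SE depend on the prior count. DESeq2 1.42.0 was an alternative. The scripts were tested on simulated data. The ac4C/IgG ratio is the ratio of CPM, with no test.

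Genes with values per library are the 12 with the highest WT GV TPM, those called in any comparison, and in each comparison the 2 with the smallest p in each direction; acRIP-seq values are given for the 3 highest and 3 lowest ratios, Eef1a1 and Eif3g. All other genes, including those called only in the 8 libraries and other acRIP-seq genes, were named after their values were seen. The members, role groups, marker lists and related gene lists were chosen with earlier results of these data known.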

Additional observations from a re-analysis of the deposited data

How the results depend on the processing

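Without a correction for depth the acRIP-seq ratios are 8.35 times larger by construction. Between stages 12 of 33 factors were called, beside 12.6% of all genes tested that rose and 20.9% that fell. DESeq2 called 22 of 33 (17.2% and 43.1% of genes), and scaling by library size alone 17 of 33 (19.1% and 23.3%). A minimum of 1 count in total called 1 of 63, Eif2s3x (0.628% and 1.30%). A minimum of 10 counts called 5 of 55 (3.25% and 5.20%). The WT libraries alone called 4 of 32 (9.98% and 11.5%), and the Nat10-ZcKO libraries alone 4 of 27 (10.2% and 6.02%). The 8 libraries called 24 of 36 (30.4% and 33.9%), and leaving out WT MII replicate 2 called 17 of 37 (20.6% and 17.2%). The cause of these differences was not tested. Leaving out each library in turn gave 3 to 17 calls between stages, 0 to 5 between genotypes in GV, 0 to 16 in MII and 0 to 13 for stage by genotype. The GV genotype comparison had 1 call in the 8 libraries, and the 2-fold rule gave 25 in GV and 45 in MII, or 13 and 27 without the 3 libraries, a setting chosen after seeing the data. Whether the replicate numbers pair the libraries cannot be told from the counts. Deviations from group means correlated at -0.14 to 0.21 for same-numbered and -0.21 to 0.19 for other libraries over 3863 genes. In groups of 2 or 3 libraries such deviations are tied to each other. The fit with a replicate block called 4 of 33 factors between stages, beside 6.52% of genes that rose and 10.5% that fell. It called 0 factors in each other comparison, beside at most 0.207% of genes. The summed share ranged over 0.775 to 0.867% in WT GV, 0.719 to 0.883% in Nat10-ZcKO GV, 0.0831 to 0.538% in WT MII and 0.630 to 0.695% in Nat10-ZcKO MII when a library was left out. Of the 49 factors with 50 or more acRIP-seq counts 11 had a ratio above 2. It was 18 of 59 at 10 counts, 3 of 24 at 200 counts, 16 of 49 with TMM factors, 5 by the lower bound and 47 unscaled, and the median ratio of 1.23 became 1.37 with TMM factors and 10.25 unscaled.

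Among the log2 changes of genes called, or with the smallest p, in the main fit of a comparison, those that turned sign against the main value had no call. Outside them, Eif3c went from -0.18 to 7.03 between genotypes in MII without WT MII replicate 1 (edgeR adjusted p = 0.0255), and Eif1b and Eif3k, called lower between genotypes in GV without Nat10-ZcKO GV replicate 3, were above 0 in the 8 libraries (0.36 and 0.79). Between genotypes in MII, Eif4g3 went from -0.37 to 0.28 with a minimum of 1 count, 0.19 with 10 counts, 0.30 with all 11 libraries in 1 fit, 0.058 with the replicate block and 6.59 without WT MII replicate 1, where Eif2b2 went to 5.69. Leaving out each library in turn, the lowest values were -0.57 for Eif4g3 and -0.84 for Eif2b2. For stage by genotype, Eif1ax went from -0.17 to 0.35 with a minimum of 1 count, 0.092 with 10 counts, 0.26 without Nat10-ZcKO GV replicate 3 and 4.81 without WT MII replicate 1, where Eif3h went to 3.38. Their lowest values on leaving out a library were -0.85 and -5.36. Among the log2 changes of the 12 genes called between stages, 139 values under the alternatives kept direction and call and 78 kept direction only. Without WT MII replicate 1, the WT MII group is a library of 4815 counts.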
